A study of Mus musculus with 33 samples.

Results

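The regions described here are ATAC-seq peaks of E13.5 control endothelial cells that were also called in cells with 1 added Runx1 copy but not in cells with 2. A control peak was a member when it shared at least 1 bp with a peak of the 1Runx1 list and none with the 2Runx1 list. Of 96537 control peaks, 13034 met this rule (14%). Another 71183 (73.7%) were called in all 3 groups and are named kept peaks below. A further 2203 (2.28%) were missing only in 1Runx1, the mirror case, and 10117 (10.5%) were missing in both. The rule read the E13.5 peak calls themselves, so every E13.5 ATAC value of the members is a description with no test.

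The series measured mouse endothelial cells sorted as CD41-CD45-Ter119-CD31+VEC+cKIT lo/+, by ATAC-seq, H3K4me1 ChIP-seq and RNA-seq. Its title names TGFβ target genes, chromatin accessibility and hemogenic specification by RUNX1. E13.5 cells came from whole fetuses of strain C57BL/6J-129Sv/J. Their genotypes were Ctrl (CKI/CKI; CKI/+), +1Runx1 (Cre; CKI/+) and +2Runx1 (Cre; CKI/CKI). Ctrl names no Cre, so Cre and the added copies cannot be told apart in a comparison with Ctrl. The 1Runx1 and 2Runx1 groups both carried Cre. The labels used here name no Cre driver. E9.5 cells came from whole embryos of a C57BL/6J-129Sv/J x B6C3F1 cross, as Ctrl (CKI/+) and +1Runx1. Adult liver cells came from mice of 4 to 6 weeks, as Ctrl and +2Runx1. Tamoxifen, 2 mg, was injected into the pregnant females 24 h before embryos were collected, controls included, and adults received it by gavage. Nothing in the labels ties replicates to different animals, so p-values measure the spread between libraries, which may be technical.

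ATAC-seq marks open chromatin by where a transposase can cut, and a peak is a stretch with more cuts than the local background. Promoters of active genes usually give strong and wide peaks in many cell types, while distal elements give weaker peaks that vary with cell type and stage. H3K4me1 is a histone mark of enhancers and promoter flanks. RUNX1 binds DNA with its partner CBFβ and is required for endothelial cells to become hemogenic and give rise to blood cells. TGFβ ligands signal through paired receptor kinases to SMAD factors, and in endothelium the pathway acts in vessel growth and in loss of endothelial identity.

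Promoter sequences were read for members that overlapped a RefSeq promoter window, which runs from 250 bases before a gene start to 50 after it (build GRCm38.p6). The 6 shown are the window with the highest-scoring member (Hemk1), those with a RUNX or ETS match among the 8 highest-scoring (H2-DMb1 and Zfp33b), 2 windows of erythroid genes (Kel and Epb42), and the window of Slc38a5, whose RNA differed between the copies. Capitals mark motif matches on either strand. The RUNX motif searched was TGTGGT. For ETS factors it was CCGGAA, the core of their sites. GATA factors were searched as AGATAA. Each sequence is written 5′ to 3′ along the gene's strand.
Hemk1, chr9:107338301-107338600, minus strand: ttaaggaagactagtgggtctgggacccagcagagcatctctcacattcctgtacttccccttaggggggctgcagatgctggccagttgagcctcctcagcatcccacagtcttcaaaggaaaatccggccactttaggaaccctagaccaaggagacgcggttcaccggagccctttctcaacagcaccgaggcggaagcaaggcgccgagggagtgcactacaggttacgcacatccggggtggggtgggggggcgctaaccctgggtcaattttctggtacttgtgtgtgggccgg
H2-DMb1, chr17:34152941-34153240, plus strand: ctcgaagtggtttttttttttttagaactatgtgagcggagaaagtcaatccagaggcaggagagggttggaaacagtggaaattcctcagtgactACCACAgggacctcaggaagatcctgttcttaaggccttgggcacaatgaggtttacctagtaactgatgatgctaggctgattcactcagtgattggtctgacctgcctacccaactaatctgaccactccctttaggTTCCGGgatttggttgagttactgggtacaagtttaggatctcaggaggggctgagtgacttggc
Zfp33b, chr5:104571422-104571721, plus strand: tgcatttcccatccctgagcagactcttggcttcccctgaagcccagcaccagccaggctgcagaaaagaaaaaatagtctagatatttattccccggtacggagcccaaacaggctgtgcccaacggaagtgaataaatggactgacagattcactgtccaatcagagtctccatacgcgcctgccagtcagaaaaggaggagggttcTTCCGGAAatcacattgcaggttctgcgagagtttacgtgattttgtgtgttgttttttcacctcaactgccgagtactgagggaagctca
Kel, chr6:41704276-41704575, minus strand: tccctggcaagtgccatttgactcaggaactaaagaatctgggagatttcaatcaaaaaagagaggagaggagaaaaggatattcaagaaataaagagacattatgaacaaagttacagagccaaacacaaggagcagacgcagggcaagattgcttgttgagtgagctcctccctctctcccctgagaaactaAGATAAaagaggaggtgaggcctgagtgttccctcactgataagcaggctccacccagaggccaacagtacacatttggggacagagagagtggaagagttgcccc
Epb42, chr2:121036828-121037127, minus strand: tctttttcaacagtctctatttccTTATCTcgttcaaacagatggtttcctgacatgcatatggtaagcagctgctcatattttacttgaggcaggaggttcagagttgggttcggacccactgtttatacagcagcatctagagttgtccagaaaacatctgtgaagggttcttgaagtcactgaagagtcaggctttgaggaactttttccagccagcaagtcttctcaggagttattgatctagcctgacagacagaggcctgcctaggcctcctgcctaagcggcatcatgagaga
Slc38a5, chrX:8271131-8271430, plus strand: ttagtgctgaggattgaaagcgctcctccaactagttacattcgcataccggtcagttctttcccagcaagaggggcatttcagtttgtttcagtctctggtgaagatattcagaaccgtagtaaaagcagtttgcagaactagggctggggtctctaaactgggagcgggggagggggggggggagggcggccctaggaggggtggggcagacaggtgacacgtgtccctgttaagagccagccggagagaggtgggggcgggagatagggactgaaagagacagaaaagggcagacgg

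Hemk1 encodes a methyltransferase of translation release factors, and its member covered all 300 bases of the window with a control score of 688. The H2-DMb1 window, at a gene of antigen loading on MHC class II, held 1 RUNX and 1 ETS match under a peak of score 287. The Zfp33b window, of a zinc finger gene, held overlapping ETS matches on both strands. Kel encodes a red cell blood group antigen and Epb42 a red cell membrane skeleton protein, and each window held 1 GATA match. The Slc38a5 window, of an amino acid transporter of brain endothelium, held none of the 3. A match describes letters in the window and does not show binding.

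Across all windows, 309 at 274 genes overlapped a member and no kept peak. Their base composition lay between that of windows with kept peaks and that of windows without a control peak. The median GC content was 53.7%, against 62.0% of 14844 windows with a kept peak and 47.0% of 17433 windows with no control peak. The median number of CpG dinucleotides was 6, against 21 and 3. Matches to TGTGGT (RUNX) occurred in 17.8% of member windows, 11.7% of kept windows and 16.8% of all 32817 windows. CCGGAA (ETS) occurred in 12.0%, 26.1% and 14.9%. The E-box CAGCTG occurred in 24.9%, 15.6% and 16.3%, and CAGATG, an E-box form bound by TAL1, in 25.2%, 11% and 17.2%. The GATA shares were 10.4% of member windows, 5.72% of kept windows and 11.2% of all windows. The RUNX, ETS and GATA shares of member windows were thus close to those of all windows, while both E-box shares were above them. Windows with no control peak had shares of 21.1% (RUNX), 5.45% (ETS), 15.8% (GATA), 16.6% (CAGCTG) and 22.2% (CAGATG). The CAGATG share of member windows was therefore near that of windows with no control peak. The 231 windows with peaks missing in 1Runx1 or in both had like E-box shares, 24.2% and 21.2%. Shares of short motifs move with GC content, which differed between these groups, and its part in them was not tested. CAGAC (SMAD) occurred in 52.1% of member windows, 47.3% of kept windows and 49.6% of all windows, which are near each other.

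Members were weak and narrow control peaks. The peak score is the whole part of 10 times the caller's -log10 q, and its median was 67 in members and 310 in kept peaks. From the lowest to the highest member it ran from 13 to 2339, with the middle 50% between 47 and 101. The caller's fold enrichment over local background had a median of 4.44 in members and 9.10 in kept peaks. The median width was 169 bp against 393 bp. In the control list, 94.8% of members scored in the lower 50%. The overlapping 1Runx1 peaks were weak as well, with a median score of 66 against 304 for partners of kept peaks. So the members were near the bottom of both lists that held them. Peaks missing only in 1Runx1 scored 54 and peaks missing in both 41 in the median.

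Split by control score into deciles, members made up 26.0% of the lowest decile, 31.8% of decile 2 and 30.9% of decile 3. Their share was 14.5% in decile 5 and 1.40% in decile 7. Deciles 9 and 10 held 1 member each. Peaks missing in both groups were concentrated lower still, at 49.2% of the lowest decile and 1.81% of decile 5. In deciles 4 to 6 the members were the largest class after kept peaks, with 24.8%, 14.5% and 5.47%. The plot of classes by score decile shows this shift.

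**Figure D1:**
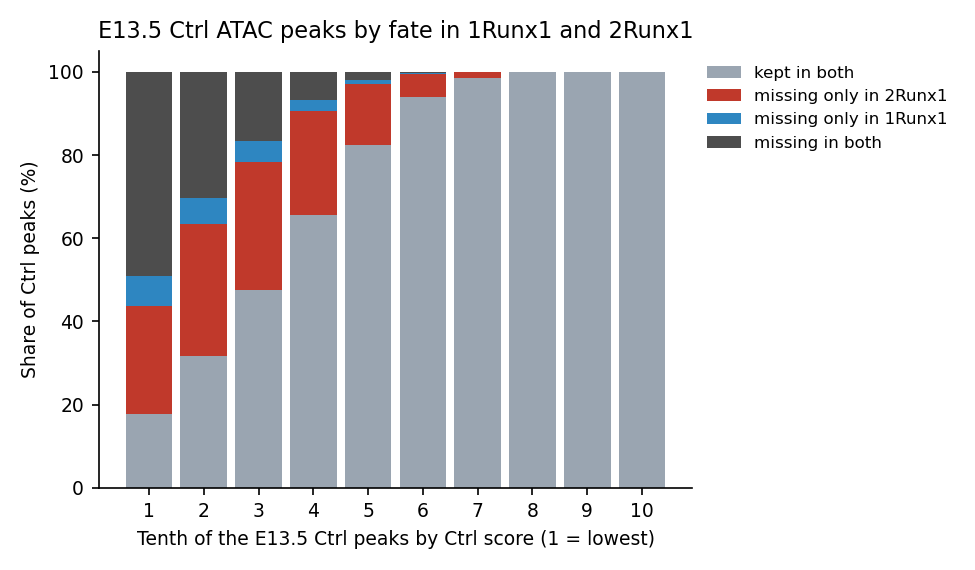
Share of E13.5 Ctrl ATAC peaks (%) in each of 4 classes, by decile of Ctrl score from 1 (lowest) to 10. Peaks missing only in 2Runx1 peak at 31.8% in decile 2 and fall to 1.40% in decile 7, while kept peaks rise from 17.7% to nearly all.

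The rule has a threshold of 1 bp, and few members lay near it. Of the members, 184 (1.41%) had a 2Runx1 peak within 100 bp and 1786 (13.7%) within 500 bp. The median gap to the nearest 2Runx1 peak was 4801 bp. The 26 members within 10 bp of a 2Runx1 peak had a median control score of 41, and the 40 kept peaks sharing at most 10 bp had 42.5. Without the members that had a 2Runx1 peak within 500 bp, 11248 were left.

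The lists differed in length, and length moves a count of missing peaks. The 2Runx1 list held 80857 peaks, the Ctrl list 96537 and the 1Runx1 list 100268. When each list was cut to its 80857 highest-scoring peaks, members fell to 6049 and peaks missing only in 1Runx1 rose to 3440. The ratio of the classes went from 5.92 with full lists to 1.76. At 60000, 40000 and 20000 peaks a list, members numbered 3542, 2166 and 963, and the mirror class 2283, 1366 and 581. Those ratios lay between 1.55 and 1.66, so the excess over the mirror class shrank but did not vanish at equal length. Of the 13034 members, 46.4% stayed members at 80857 peaks a list. Another 34.0% fell outside the shortened Ctrl list, and 19.6% lost their 1Runx1 partner from it.

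**Figure D2:**
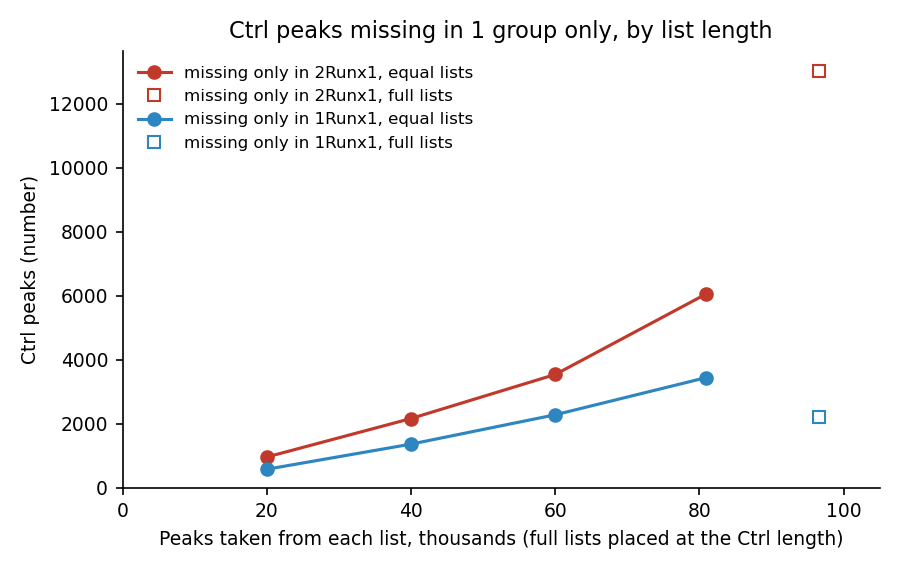
Number of E13.5 Ctrl peaks missing in only 1 group (y axis) by the number of peaks taken from each list (x axis, in units of 1000, with full lists placed at the Ctrl length). Filled points are equal lists, from 963 to 6049 for 2Runx1 and 581 to 3440 for 1Runx1, and open squares are the full lists, 13034 and 2203.

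Within the upper 50% of control scores, 678 peaks were missing only in 2Runx1, 18 only in 1Runx1 and 37 in both, each against the full lists of the other groups. Each list combined the 2 ATAC libraries of its group, so the spread between replicates and the depth behind a peak are unknown. Closing of a region and a library or list that reached fewer weak peaks cannot be told apart from these lists alone. The 2Runx1 signal at the members was not analysed here.

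The strongest member stood apart from the rest. It lay at chr17:50420085-50420193 (mm10), 3.96 kb from the start of Gm31015, with a score of 2339 and a 47.1-fold enrichment in Ctrl. In 1Runx1 a peak with the same ends scored 2015 with a 45.5-fold enrichment, while the nearest 2Runx1 peak was 12529 bp away. It had a peak in E9.5 Ctrl and none in E9.5 1Runx1 or either liver list. A pair of strong members lay close together on chromosome 4, at chr4:139330683-139330930 (score 929, fold 23.9) and chr4:139336913-139337328 (score 514, fold 15.8). Both were called in both E9.5 lists and in no liver list, and neither carried H3K4me1.

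Other high-scoring members lay in genes. The member at the Hemk1 promoter, chr9:107338136-107338626, was called in both E9.5 lists and carried H3K4me1 in both E13.5 groups. One in Nr4a2, an orphan nuclear receptor and early response gene, scored 562 at chr2:57117696-57117805, and a 2Runx1 peak lay 559 bp away. One in Cav2, a caveolar coat gene of endothelium, scored 477 at chr6:17286488-17286931 and carried H3K4me1 in both groups. RNA of Nr4a2 and Cav2 did not pass the test in 2Runx1 against 1Runx1. Cav2 read 61.9 and 74.1 RPKM in the 1Runx1 libraries and 46.3 and 57.7 in 2Runx1, a log2 difference of -0.38 ± 0.12 (SE) with a limma adjusted p of 0.0909.

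The members whose 1Runx1 partner scored highest were of another kind. All 5 lay within 1 kb of a gene start and had low control scores, from 25 to 130, under 1Runx1 scores of 2025 to 3679. Their nearest genes were Gm15704 (inside Rassf8), Eif5a, Cpt1a, Ier5l and Trmt61a, and a 2Runx1 peak lay 62 to 347 bp away. In each, a narrow control peak of 153 to 227 bp overlapped a 1Runx1 peak of much larger score. At Eif5a, a translation factor gene, the control peak spanned 153 bp at chr11:69920548-69920700, and the 1Runx1 peak ran from 69920551 to 69922020. Such members were absent from the 2Runx1 list by their exact interval, while a 2Runx1 peak lay close by.

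Members lay farther from gene starts than kept peaks. On chromosomes with known starts, 809 of 12567 members (6.44%) were within 1 kb of a start, against 14486 of 68828 kept peaks (21.0%). Kept peaks weighted to the members' score deciles gave 8.21%, which is near the members' share. Gene bodies beyond promoters held 51.7% of members and 52.0% of weighted kept peaks. The median distance to a start was 22.2 kb in members and 15.2 kb in kept peaks, and it was 23.0 kb in peaks missing only in 1Runx1 and 24.2 kb in those missing in both. Members were spread over the genome, from 12.3% of control peaks on chromosome 7 to 14.6% on chromosome 1, leaving out Y with 0 of 3.

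Along the chromosomes, 73.1% of members had no other member as the neighbouring control peak. The longest run was 6 consecutive control peaks, at chr17:36145093-36205631, in the MHC class I region near H2-T3, with scores of 21 to 176. Runs of 5 lay at Efcab3, at Btla (an inhibitory receptor of lymphocytes), between Zfp33b and Abcg3, in Utrn (utrophin, a cytoskeletal linker) and at Dio2 (a thyroid hormone deiodinase). How many runs a random order would give was not tested.

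The lists of other stages and tissues did not enter the rule, though each is also 1 combined list per group. At E9.5, 6790 of 13034 members (52.1%, 95% Wilson interval 51.2 to 53.0, counting error only) had a Ctrl peak and 46.9% a 1Runx1 peak. Kept peaks had them in 89.5% and 88.6%, and kept peaks of the same score deciles in 71.3% and 71.8%. The gap to kept peaks was therefore present within deciles too. In decile 5 of the control score the E9.5 Ctrl share was 61.5% in members and 83.8% in kept peaks, and in decile 1 it was 43.3% and 59.4%. Peaks missing only in 1Runx1 were at 58.6%, nearer to the members. So members were less often shared with E9.5 endothelium than kept peaks of like score, as the mirror class was.

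Members seen in E9.5 Ctrl were often absent from E9.5 1Runx1, which carries 1 copy. Of the 6790, 24.7% had no E9.5 1Runx1 peak, against 4.19% of kept peaks and 11.5% of kept peaks at like score. The reverse order gave 16.4% of members without an E9.5 Ctrl peak among those with an E9.5 1Runx1 peak, against 11.9% of weighted kept peaks. The mirror class gave 22.2% and 15.9%. Members were thus often called in only 1 of the E9.5 lists, in both directions, at shares near those of the peaks missing only in 1Runx1.

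Adult liver endothelium shared few members. A Liver Ctrl peak lay at 1052 members (8.07%), against 38.7% of kept peaks and 9.89% of weighted kept peaks. Of these 1052, 453 (43.1%) had no Liver 2Runx1 peak, against 35.6% of weighted kept peaks. In reverse, 34.1% of members with a Liver 2Runx1 peak had no Liver Ctrl peak, against 36.4% of weighted kept peaks. The liver lists were of nearly equal length, with 39019 and 39469 peaks. In all, 4715 members (36.2%) were in none of the 4 E9.5 and liver lists, against 6.40% of kept peaks, 29.8% of peaks missing only in 1Runx1 and 54.9% of those missing in both. In all 4 lists were 229 members.

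H3K4me1 covered fewer members than kept peaks of like score. In Ctrl, 2268 members (17.4%) overlapped an H3K4me1 region, against 34.7% of kept peaks and 27.8% of weighted kept peaks. The gap widened with score. In decile 1 the shares were 18% of members and 24.8% of kept peaks, and in decile 6 they were 10.4% and 33.0%. At promoters 26.3% of members and 34.2% of weighted kept peaks carried the mark, and beyond 1 kb from a start 16.7% and 27.1%. In the 2Runx1 list, with 88344 regions against 48795 in Ctrl, the shares were 37.2% of members and 55.6% of weighted kept peaks. Of members marked in Ctrl, 11.3% had no 2Runx1 region, against 7.79% of weighted kept peaks. Among peaks missing only in 1Runx1, 22.8% overlapped a Ctrl region and 49.5% a 2Runx1 region. For peaks missing in both these shares were 15.5% and 35.9%. Of the marked peaks of these 2 classes, 9.76% and 12.3% had no 2Runx1 region. Less marking than in kept peaks was thus not particular to the members. The labels of 1 of the 2Runx1 ChIP libraries and of its input name each other's file, so which libraries made the 2Runx1 list is in doubt.

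**Figure D3:**
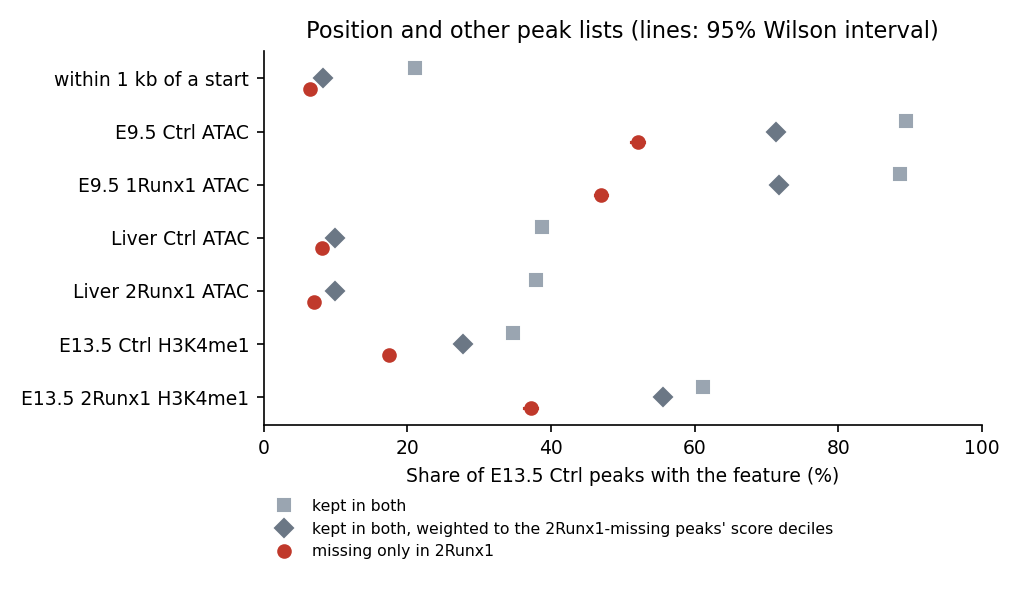
Share of E13.5 Ctrl peaks (%, x axis) within 1 kb of a gene start or overlapping another list (y axis), for kept peaks, kept peaks weighted to the members' score deciles, and peaks missing only in 2Runx1. Lines are 95% Wilson intervals, which cover counting error only. At E9.5 and for H3K4me1 the members sit below both kept values (52.1%, 71.3% and 89.5% for E9.5 Ctrl).

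Each member was linked to the nearest known gene start within 50 kb, which joined 8960 members to 6663 genes. Among all linked control peaks, 12.7% were members. The genes with the most members were Gm52886 with 8 of its 19 control peaks, Fry (a scaffold of cell polarity) with 7 of 14, Gm11266 with 7 of 21 and Ksr1 (a scaffold of the RAF-MEK-ERK cascade) with 7 of 23. Gm52402, Adgrl2 (an adhesion receptor) and Lpin2 (a phosphatidate phosphatase) had 6 each, and Ccdc34, Atp2b1 (a plasma membrane calcium pump) and Art4 had 5. All 5 members linked to Ccdc34 lay inside Lgr4, a receptor gene, 12.9 to 46.5 kb from the Ccdc34 start. Of these 10 genes 7 were tested in RNA, and none passed in 2Runx1 against 1Runx1 (background 5.33% of all genes). Art4, a blood group gene, rose in 1Runx1 against Ctrl by 1.30 ± 0.24 on the log2 scale (limma adjusted p = 0.0113), from 1.89 to 4.72 and 7.85 RPKM. In 2Runx1 it read 3.61 and 5.54 RPKM, between Ctrl and the higher 1Runx1 library.

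RNA was compared as log2(RPKM + 1) with limma over 12546 genes, and a gene is called when its adjusted p, by Benjamini and Hochberg over all of them, is below 0.05. Errors after log2 differences are standard errors. E13.5 Ctrl had 1 RNA library, so its spread was taken from the other groups. As a check of the labels, Runx1 read 1.37 RPKM in Ctrl, 28.9 and 23.7 in 1Runx1, and 22.7 and 25.2 in 2Runx1. Both groups with added copies were above Ctrl, with log2 differences of 3.52 ± 0.12 and 3.39 ± 0.12, and they overlapped each other (-0.13 ± 0.10, limma adjusted p = 0.503). Runx1 RNA therefore does not check the labels of 1 and 2 copies against each other. The 26 endothelial markers summed to 4530 RPKM in Ctrl, 4780 to 4940 in 1Runx1 and 4580 to 4640 in 2Runx1, and none was at 0. One member lay inside Runx1, at chr16:92801682-92801869, with a control score of 117 and the nearest 2Runx1 peak 21406 bp away.

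Between 2Runx1 and 1Runx1, the groups that the peaks separate, 159 of 2781 tested genes linked to a member were called (5.72%). The background was 5.33% of all genes tested, and 5.09% of genes linked to kept peaks only. Of the 159, 64 were higher in 2Runx1 (2.3%, background 2.17%) and 95 lower (3.42%, background 3.16%). The median log2 difference was -0.002, against -0.011 over all genes. These shares lie near the background and are not a result about the members. With members at the promoter, 19 of 249 genes were called (7.63%), 9 higher and 10 lower. With 3 or more members, 9 of 217 were (4.15%), 4 higher and 5 lower. With quantile normalization the higher share of called genes moved from 40.3% to 50.6% for linked genes and from 40.7% to 52.1% for all genes.

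Against Ctrl the linked genes also lay near the background. In 2Runx1 against Ctrl, 5 of 2781 linked genes were called (0.180%), against a background of 0.271%, 3 higher (background 0.151%) and 2 lower (background 0.12%). In 1Runx1 against Ctrl, where these peaks were present in both groups, 269 were called (9.67%), against a background of 10.4%, 172 higher (background 6.34%) and 97 lower (background 4.03%). At an unadjusted p below 0.05, 371 and 790 linked genes passed, of 1642 and 3530 over all genes. Without 2Runx1 replicate 1, 63 linked genes were called in 2Runx1 against Ctrl (2.27%, against 2.04% of all genes), and without replicate 2, 21 were (0.755%, against 0.885%). Quantile normalization made it 4 of 10 called linked genes higher in 2Runx1, and moved the higher share from 63.9% to 53.8% in 1Runx1. The 3 comparisons share libraries, so their counts are not independent. With only the 5 E13.5 libraries in the fit, 0, 0 and 1 linked genes were called, so these calls rest on a spread estimated over all 13 libraries.

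**Figure D4:**
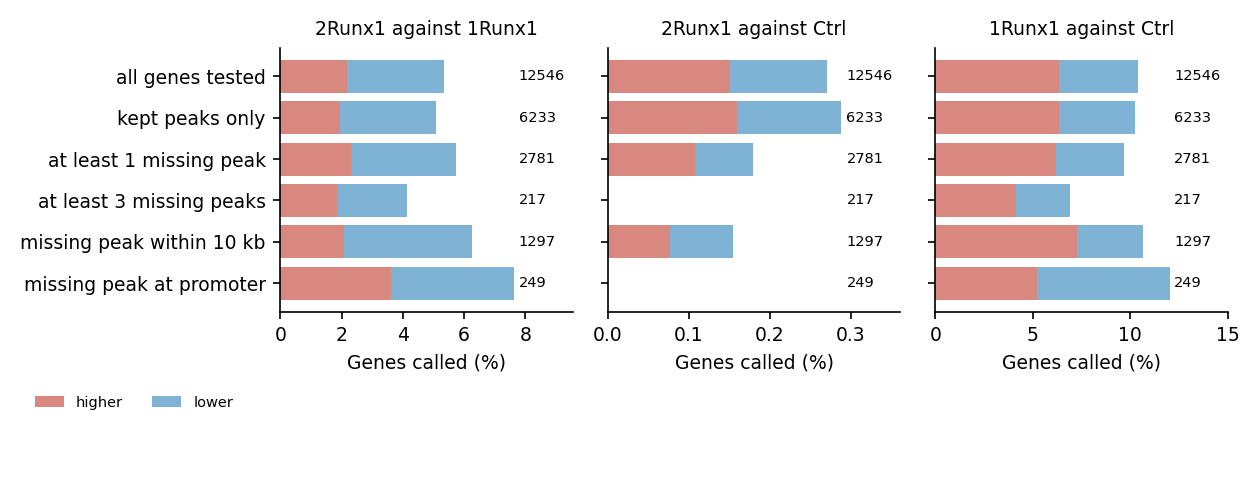
Share of tested genes called higher or lower (%, x axis) in 3 E13.5 comparisons, for all genes and for genes grouped by their linked peaks (y axis); numbers at the right are genes tested. Genes linked to peaks missing only in 2Runx1 lie near all genes in 2Runx1 against 1Runx1 (5.72% and 5.33%).

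Genes whose promoter windows overlapped members and no kept peak were mostly silent or low. Of 228 such genes 134 were in the RPKM table, with a median of 0.109 RPKM in Ctrl, 0.101 in 1Runx1 and 0.119 in 2Runx1. Genes with a kept promoter peak had 6.70, 6.82 and 6.84 RPKM. Only 40 passed the filter on low values, and of these 1 was higher and 2 lower in 2Runx1 against 1Runx1 (background 2.17% and 3.16%). Zfp33b was the higher one, from 3.15 and 2.38 RPKM in 1Runx1 to 4.99 and 3.87 in 2Runx1, with Ctrl at 6.08. Slc38a5 and Fgfbp1, an FGF carrier protein, were the lower ones.

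Among linked genes lower in 2Runx1 than in 1Runx1, Hspa1a, Ttyh2, Hspb1 and Cdkn1a had the largest differences. Cdkn1a, which encodes the p21 inhibitor of cyclin-dependent kinases, read 8.05 RPKM in Ctrl, 31.8 and 39.9 in 1Runx1, and 15.6 and 14.6 in 2Runx1. The 3 groups did not overlap, and the difference between 2Runx1 and 1Runx1 was -1.19 ± 0.12 (limma adjusted p = 0.000694). Its linked member lay outside the gene, 11.8 kb from the start, with a 2Runx1 peak 288 bp away. Hspa1a, an inducible HSP70 chaperone, read 32.6 in Ctrl, 69.8 and 28.8 in 1Runx1, and 15.3 and 15.1 in 2Runx1. The 1Runx1 libraries differed from each other and Ctrl lay between them (-1.5 ± 0.28, adjusted p = 0.0162), and the call was lost without the filter on low values (0.0611). Hspb1, a small heat shock protein, read 42.5 and 29.5 in 1Runx1 and 16.1 and 13.2 in 2Runx1 (-1.23 ± 0.14, adjusted p = 0.00144). Ctrl, at 21.0 RPKM, lay between these groups.

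Ttyh2 and 3 transporter genes were among the others. Ttyh2, a chloride channel family gene, read 12.4 RPKM in Ctrl, 55.0 and 50.0 in 1Runx1, and 14.8 and 25.1 in 2Runx1 (-1.40 ± 0.20, limma adjusted p = 0.00516). Slc38a5 read 48.6 in Ctrl, 121 and 114 in 1Runx1, and 50.6 and 83.3 in 2Runx1 (-0.84 ± 0.18, adjusted p = 0.0293). Its single control peak, at chrX:8271350-8271456, lay on the start and was a weak one, of score 21. The amino acid transporter Slc7a8 fell by 0.92 and the organic anion transporter Slc22a8 by 0.90 on the log2 scale. Slc38a5 lost its call without 1Runx1 replicate 1 (adjusted p = 0.0791), 1Runx1 replicate 2 (0.0732) or 2Runx1 replicate 1 (0.0596). Slc22a8 lost it without 1Runx1 replicate 1 (0.0682) or 2Runx1 replicate 1 (0.0613). Pcp4l1, Ocel1 and Dusp23, a phosphatase gene, were the remaining lower genes named, with log2 differences of -0.96, -0.93 and -0.86. Dusp23 lost its call without 1Runx1 replicate 1 (0.140) or 2Runx1 replicate 2 (0.133). The member linked to Ocel1 lay inside Nr2f6. In each of these genes the 1Runx1 libraries were above all 2Runx1 libraries.

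Among linked genes higher in 2Runx1, the smallest spread was that of Pop4, a subunit of RNase P. It read 41.3 RPKM in Ctrl, 31.1 and 30.5 in 1Runx1, and 47.2 and 48.0 in 2Runx1 (0.61 ± 0.05, limma adjusted p = 9.78e-05). Its member lay 0.640 kb from the start, 280 bp from a 2Runx1 peak. Slc16a3, a lactate exporter, read 13.3 in Ctrl, 6.98 and 7.51 in 1Runx1, and 15.0 and 10.9 in 2Runx1 (0.75 ± 0.11, adjusted p = 0.00673). Here Ctrl lay inside the 2Runx1 range and 1Runx1 stood below both. Tll1, a tolloid protease gene, and Ror2, a WNT5A receptor gene, rose by 0.74 ± 0.10 and 0.65 ± 0.09, and Tll1 lost its call with a pseudocount of 0.1 (adjusted p = 0.0962). Oaf, Ackr1 (a chemokine binding receptor of venular endothelium) and Upf1 (a helicase of nonsense-mediated decay) rose by 0.76, 0.76 and 0.73, and each lost its call without at least 1 library. For Oaf the adjusted p was 0.0735 without 1Runx1 replicate 1 and 0.0714 without 2Runx1 replicate 1. For Ackr1 it was 0.162 without 1Runx1 replicate 1 and 0.143 without 2Runx1 replicate 2. For Upf1 it was 0.0561 without 1Runx1 replicate 2, and 0.0766 and 0.0790 without 2Runx1 replicates 1 and 2.

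Fbp1, Serpinf2 and Mt2 were the other higher genes named. Fbp1, a gluconeogenic enzyme, read 1.41 RPKM in Ctrl, 0.111 and 0.223 in 1Runx1, and 5.61 and 1.12 in 2Runx1. The 2Runx1 libraries differed widely (1.68 ± 0.38, limma adjusted p = 0.0315). The call was lost without 1Runx1 replicate 1 (0.0819) or replicate 2 (0.0812). Serpinf2, the liver-made inhibitor of plasmin, read 5.14 in Ctrl, 1.75 and 1.62 in 1Runx1, and 2.87 and 3.34 in 2Runx1 (0.61 ± 0.10, adjusted p = 0.00959). Its linked member lay inside Wdr81. Mt2, a metallothionein, read 29.0 in Ctrl, 9.63 and 8.82 in 1Runx1, and 14.5 and 16.9 in 2Runx1 (0.70 ± 0.13, adjusted p = 0.0182). The Mt2 call was lost without 1Runx1 replicate 2 (0.0700) or 2Runx1 replicate 2 (0.0542). Serpinf2 and Mt2 fell in 1Runx1 against Ctrl, with log2 differences of -1.20 ± 0.12 and -1.56 ± 0.17.

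Most hepatocyte markers, like Serpinf2 and Mt2, were lower in 1Runx1 than in Ctrl and higher in 2Runx1 than in 1Runx1. Fbp1 read 5.61 and 1.12 RPKM in 2Runx1 replicates 1 and 2, where albumin RNA ran the other way. Of 15 hepatocyte markers tested, 10 were higher and 0 lower in 2Runx1 against 1Runx1 (background 2.17% and 3.16%). In 1Runx1 against Ctrl 13 were lower and 1 higher (background 4.03% and 6.34%). In 2Runx1 against Ctrl 2 were lower and 0 higher (background 0.12% and 0.151%). The 19 listed summed to 317 RPKM in Ctrl, 218 to 219 in 1Runx1 and 217 to 312 in 2Runx1, and none was at 0. The sum understates the fall in 1Runx1, where the median log2 difference from Ctrl over the tested markers was -1.48. Trf went the other way, with 90.7 RPKM in Ctrl, 144 and 134 in 1Runx1, and 115 and 117 in 2Runx1. Ttr did so too, with 5.8, then 22.7 and 19.8, then 3.25 and 59.2. Albumin (Alb) read 28.1 in Ctrl, 5.53 and 9.80 in 1Runx1, and 11.6 and 18.5 in 2Runx1. Of 15 erythroid markers tested, 8 were lower and 0 higher in 1Runx1 against Ctrl, with the same background of 4.03% and 6.34%. In 2Runx1 against Ctrl 2 were lower and 0 higher. The erythroid list summed to 1330 RPKM in Ctrl, 534 to 651 in 1Runx1 and 679 to 1380 in 2Runx1. Hbb-bs and Hbb-bt were listed at 0 in all 5 libraries. The part of these cells in the results above was not tested. In bulk RNA, fewer cells of a type and less RNA per cell cannot be told apart.

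**Figure D5:**
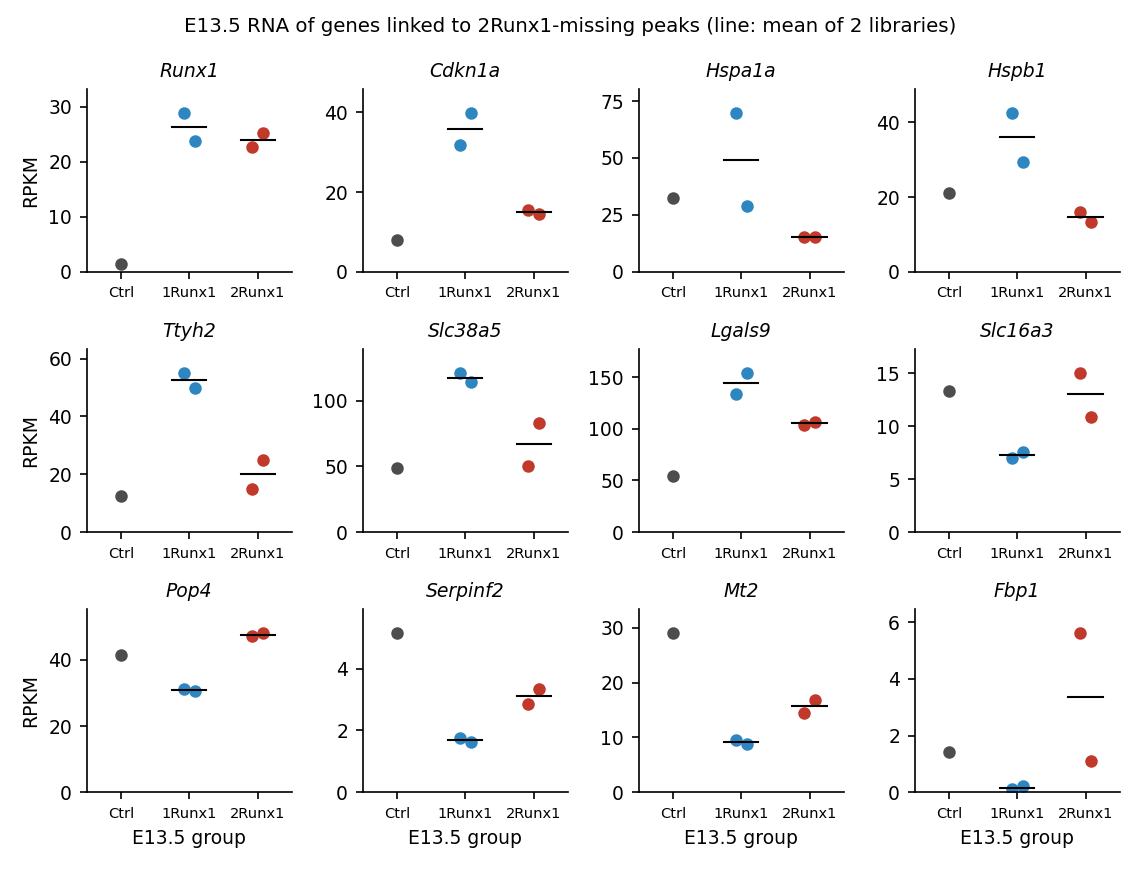
RPKM (y axes, each from 0) of 12 genes linked to peaks missing only in 2Runx1, in each E13.5 RNA library by group; lines are means of 2 libraries, and Ctrl has 1. Cdkn1a, Ttyh2 and Slc38a5 are high in both 1Runx1 libraries, and Slc16a3, Pop4 and Mt2 are low in them.

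Few genes linked by nearest start were called in 2Runx1 against Ctrl. Runx1, Lgals9 and Gm4737 were the 3 higher ones, and linking by gene interval gave 8 higher and 2 lower. Lgals9 encodes galectin-9, an immune regulatory lectin. It read 54.4 RPKM in Ctrl, 134 and 154 in 1Runx1, and 104 and 107 in 2Runx1. It differed from Ctrl by 0.94 ± 0.08 in 2Runx1 (limma adjusted p = 0.00039) and by 1.38 ± 0.08 in 1Runx1 (8.25e-06). Of its linked members 1 lay inside Lgals9, 17.2 kb from the start, and 1 inside Nos2, 32.2 kb away. Gm4737 read 0.215 in Ctrl, 4.27 and 3.74 in 1Runx1, and 2.46 and 1.66 in 2Runx1. Mospd1 and Acta1, the skeletal muscle actin gene, were the lower genes, with log2 differences of -0.49 ± 0.07 and -0.90 ± 0.14. Acta1 lost its call with a pseudocount of 0.1 (limma adjusted p = 0.176) and with quantile normalization (0.0545). In 1Runx1 against Ctrl the largest differences were those of Runx1, Gm4737, Cdkn1a, Ttyh2 and Lgals9 among higher genes. Ppbp, a platelet chemokine, Mt2, Actc1 (cardiac actin), Aadac (a liver esterase) and Serpinf2 had the largest among lower genes, from -1.88 to -1.20.

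Kel, which is not on the erythroid marker list, and Epb42, which is, had members at their promoters. Kel read 5.53 RPKM in Ctrl, 1.33 and 3.01 in 1Runx1, and 2.97 and 1.78 in 2Runx1. Epb42 read 4.09, then 1.27 and 2.62, then 1.91 and 1.45. Both were lower in 1Runx1 than in Ctrl (-1.10 ± 0.27 and -0.83 ± 0.22, limma adjusted p = 0.0319 and 0.0412), and neither was called between the copies (0.12 ± 0.22 and -0.10 ± 0.18). Their promoter members, of score 72 and 41, were called in Ctrl and 1Runx1, although RNA was lower in 1Runx1. With gene intervals, 8 of 46 control peaks at erythroid genes were members (17.4%), against 13% of all control peaks in or within 10 kb of a gene.

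Gene lists were read by RefSeq gene interval with 10 kb on each side, since gene starts were known for only part of each list. The list shares are descriptions on few peaks. Among all control peaks in or within 10 kb of a gene, 13% were members. Of 226 control peaks at TGFβ target genes 26 were members (11.5%), at 19 of 30 genes. Of 258 at TGFβ pathway components 43 were (16.7%), at 17 of 22 genes. For hemogenic regulators it was 25 of 251 (9.96%), for endothelial identity genes 23 of 288 (7.99%), for arterial genes 16 of 122 (13.1%) and for venous genes 8 of 99 (8.08%). Mesenchymal genes had 16 of 74 (21.6%), the highest share. Control peaks there were also weaker, with a median percentile of 42.9 in the control list, against 56.7 at endothelial genes. The part of peak strength in the order of the lists was not tested.

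Members were spread over ligand-binding, receptor and SMAD genes of the TGFβ pathway. Ltbp1, which tethers latent TGFβ in the matrix, had 9 of 21 control peaks missing only in 2Runx1. The strongest of those linked to its start was at chr17:75171742-75171966, with a score of 64. The coreceptor gene Tgfbr3 had 6 of 37, the type I receptor Acvrl1 3 of 10, the type I receptor Acvr1 3 of 19 and the type II receptor Tgfbr2 2 of 19. Among signal transducers, Smad3 had 4 of 21 and Smad1 3 of 17. In RNA, 0 of the 17 tested components with a member were called in 2Runx1 against 1Runx1 by limma. The background was 5.33% of all genes, so 0 of 17 cannot be told from it. Ltbp1 read 4.46 RPKM in Ctrl, 6.58 and 6.48 in 1Runx1, and 5.86 and 6.99 in 2Runx1. It rose in 1Runx1 against Ctrl (0.46 ± 0.12, adjusted p = 0.0393) and did not pass in 2Runx1 (0.44 ± 0.12, adjusted p = 0.195). Smad3 read 9.60, then 9.78 and 10.5, then 12.1 and 13.8, higher in both 2Runx1 libraries but not called (0.32 ± 0.10, adjusted p = 0.0843).

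Of 17 tested TGFβ targets with a member, 1 was higher and 1 lower in 2Runx1 against 1Runx1. Fn1, which encodes fibronectin, read 81.8 RPKM in Ctrl, 70.5 and 59.1 in 1Runx1, and 126 and 94.7 in 2Runx1 (0.75 ± 0.12, limma adjusted p = 0.00968). It had 2 control peaks in or near it, and 1 was a member. Jun, an AP-1 subunit, read 217 and 175 in 1Runx1 and 157 and 155 in 2Runx1 (-0.32 ± 0.08, adjusted p = 0.0435). The background was 2.17% of all genes higher and 3.16% lower, and over the whole list 1 of 28 was higher and 3 lower. In 1Runx1 against Ctrl, 3 of the 17 fell and 0 rose, against 2 higher and 3 lower of 28 on the whole list and a background of 6.34% and 4.03%. Cdkn1a, whose nearest member lies beyond the 10 kb limit, is on the list and was among the higher genes. The 3 that fell were Smad7, the inhibitory SMAD (-0.87 ± 0.18), Thbs1, an activator of latent TGFβ (-0.59 ± 0.16), and Tagln, an actin-binding protein of smooth muscle (-0.53 ± 0.13). The 16 mesenchymal markers summed to 169 RPKM in Ctrl, 119 and 134 in 1Runx1, and 175 and 122 in 2Runx1, with a median log2 difference of -0.34 in 1Runx1 over the 14 tested, of which 1 fell, and their part in these falls was not tested. In 2Runx1 against Ctrl 0 of 17 were called (background 0.271%).

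Hemogenic regulators with a member included Mecom, a stem cell transcription factor gene, with 6 of 45 control peaks, and Gata3 with 3 of 11. Of 11 tested regulators with a member, 5 rose in 1Runx1 against Ctrl and 0 fell, against 6.34% and 4.03% of all genes. They were Gata2, Kit, Cd44, Lmo2 and Runx1, the added gene itself. The other 6 with a member were not called, among them Gfi1b (-0.48), Runx1t1 (-0.41) and Erg (-0.09). On the whole list 6 of 20 tested rose and 1 fell, so the rise was not particular to regulators with a member. Gata2, a driver of hemogenic fate, read 13.2 RPKM in Ctrl, 20 and 22.5 in 1Runx1, and 17.0 and 20.4 in 2Runx1. It rose in 1Runx1 (0.65 ± 0.11, limma adjusted p = 0.00733) and did not pass in 2Runx1 (0.47 ± 0.11, adjusted p = 0.123). The member in Gata2, chr6:88206039-88206220, had a score of 250 and was called in all 4 E9.5 and liver lists, with H3K4me1 in both groups. Lmo2, a bridging factor of blood transcription complexes, was the 1 of these 11 called between the copies (background 5.33%). It read 154 and 161 in 1Runx1 and 120 and 133 in 2Runx1 (-0.31 ± 0.07, adjusted p = 0.0432), with Ctrl at 116.

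Among 15 tested endothelial identity genes with a member, 2 were higher and 1 lower in 2Runx1 against 1Runx1, where 2.17% and 3.16% of all genes were. Vwf, which encodes von Willebrand factor, had 3 members among 18 control peaks and read 20.4 and 28.6 RPKM in 1Runx1, and 33.7 and 37.3 in 2Runx1 (0.54 ± 0.12, limma adjusted p = 0.0329). Tek, the angiopoietin receptor, read 124 and 115, and then 137 and 150 (0.26 ± 0.06, adjusted p = 0.0403), with Ctrl at 157. Esam, an endothelial adhesion gene, read 464 and 459, and then 369 and 412 (-0.24 ± 0.05, adjusted p = 0.0264). Cdh5, which encodes the VE-cadherin used in the sort, had 3 members of 15 and did not pass between the copies (-0.13 ± 0.05). Gains and losses of RNA both occurred at genes with members.

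Arterial genes with members were not called in RNA. Efnb2, an arterial ephrin ligand, had 5 members among 12 control peaks and read 37.4 RPKM in Ctrl, 32.5 and 31.6 in 1Runx1, and 39.8 and 29.4 in 2Runx1. In limma 0 of 9 tested arterial genes with a member were called in any of the 3 comparisons. The background was 5.33% of all genes in 2Runx1 against 1Runx1, 0.271% in 2Runx1 against Ctrl and 10.4% in 1Runx1 against Ctrl. With so few genes, 0 called cannot be told from these shares. The Gja5 member, chr3:97032039-97032179, lay 0.223 kb from the start of this connexin gene and was called in both E9.5 lists. The Nrp1 member, chr8:128363342-128363497, was the strongest on the list, with a score of 448 in Ctrl and 364 in 1Runx1, and was called in E9.5 and Liver Ctrl and not in Liver 2Runx1. Of 4 venous genes with a member 0 were called, and the same limit holds for them. The Stab2 member lay 0.507 kb from the start, 491 bp from a 2Runx1 peak. Pdgfra, a mesenchymal receptor gene with 3 members of 7, read 1.03 and 1.28 RPKM in 1Runx1 and 2.64 and 1.80 in 2Runx1 (0.57 ± 0.14, limma adjusted p = 0.0496), with Ctrl at 2.47.

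Other lists added a few called genes with members. Slc7a5, an amino acid transporter of brain endothelium, and Lef1, a WNT effector, were lower in 2Runx1 than in 1Runx1 (-0.52 and -0.35, limma adjusted p = 0.0115 and 0.0432). Itgb3, the integrin β3 gene of platelets, was higher in 2Runx1 than in Ctrl by 1.88 on the log2 scale (adjusted p = 0.000176) and had 2 members among 7 control peaks. Ppbp, Pf4, Gp9 and Treml1 of the same megakaryocyte list read below Ctrl in all 2Runx1 and 1Runx1 libraries. Over the 5 tested markers the median log2 difference from Ctrl was -0.48 in 2Runx1 and -0.66 in 1Runx1. In 1Runx1 3 of them fell and 1 rose (background 4.03% and 6.34%). Csf1r, the macrophage growth factor receptor, was higher in 2Runx1 than in 1Runx1 (0.62, adjusted p = 0.0153). The 16 macrophage markers summed to 80.1 RPKM in Ctrl, 60.3 to 61.4 in 1Runx1 and 59.5 to 85.5 in 2Runx1, and the part of these cells in the Csf1r difference was not tested.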

How the data were processed

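The series held 33 samples, of which the 14 ATAC-seq, 4 H3K4me1 and 13 RNA-seq libraries gave the values used. Per the submitters' processing notes, the tools included Trim Galore 0.6.4, Bowtie2 2.3.5.1, SAMtools 1.1, MACS2 2.1.4, deepTools 3.3.0, STAR 2.7.3a, Subread 2.0.0 with featureCounts, and edgeR, on mm10 (GRCm38). Parameters are not given in the sources used here. The deposited peak lists give a score, a fold enrichment, and -log10 q values per peak, and the authors gave both replicates of a group 1 list. In every list the score equals 10 times -log10 q, rounded down. Lists for H3K4me1 gave regions. Deposited RNA values are RPKM for 25239 genes, so depth is unknown.

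Peaks were overlapped by at least 1 bp. Shares of kept peaks were weighted to the members' distribution over 10 score deciles. Gene starts, promoter sequences and gene intervals came from RefSeq tables of GRCm38.p6, which had starts for 9852 of 12546 tested genes and none on chromosome 18. No genome sequence was used, so motifs were read in promoter windows and not at summits. RPKM plus a pseudocount of 1 was log2 transformed. Genes with at least 1 RPKM in at least 2 libraries were tested with limma 3.58.1 in R 4.3.3, over all 13 libraries and 7 groups (10.3 total degrees of freedom), with Benjamini-Hochberg adjustment over all genes tested. Overlap and limma steps were tested on simulated data. The members and lists were chosen with earlier results of these data known. Regions named were the 10 with the highest Ctrl score, the 5 with the highest 1Runx1 score and the best of each listed gene, of which some are described. Genes named were linked genes with the largest changes called (up to 10 each way between the copies, 5 against Ctrl), the 10 with most members, and listed genes with a member. Genes of the TGFβ and arterial lists that were not called, Nr4a2 and Cav2 RNA, promoter sequences and runs of members were picked after their values were seen. Same-numbered E13.5 replicates did not deviate together (correlation -0.0468 over 12546 genes).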

Additional observations from a re-analysis of the deposited data

How the results depend on the processing

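Of the 13034 members, 6049 were left with equal list lengths and 678 in the higher-scoring 50% of the Ctrl list. The share at a promoter, 6.44%, was 6.93% with an overlap of at least 50%, 4.55% without members near a 2Runx1 peak (within 500 bp), and 5.52% in the higher-scoring 50%. The share with an E9.5 Ctrl peak, 52.1%, was 58.1% with equal lists, 56.6% with 50% overlap and 78.5% in the higher-scoring 50%. The share with Ctrl H3K4me1, 17.4%, was 15.3%, 19.0% and 10.2% in the same order, and 14.1% without members near a 2Runx1 peak. The share missing from Liver 2Runx1, 43.1%, was 39.7% with 50% overlap and 47.7% in the higher-scoring 50%. Counts of called linked genes are given as 2Runx1 against 1Runx1, 2Runx1 against Ctrl and 1Runx1 against Ctrl, with 159, 5 and 269 as reported. They were 0, 0 and 1 with E13.5 libraries only, 81, 2 and 138 for members within 10 kb, 19, 0 and 30 for promoter members, and 92, 2 and 148 with equal lists. Linking by gene interval, chosen after seeing the data, gave 275, 10 and 448. Without the filter on low values the first became 96 and the second 32, and quantile normalization made the second 10. Leaving out 1 library gave 108 to 201, 21 to 63 and 208 to 275. With replicate number as a block the counts were 63, 4 and 96, and the numbers did not pair the samples (correlation -0.0468). Of 35 single-gene differences 0 reversed and 27 kept their call with each library left out, while 34 lost it with E13.5 libraries only, 9 without the filter, 9 with the block (Acta1, Mospd1 and Actc1 among them), 6 with a pseudocount of 0.1 and 1 with quantile normalization. Each E13.5 RNA group had at most 2 libraries.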
